A study of Mus musculus with 10 samples.

Results

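The nuclear-encoded subunits of the mitochondrial oxidative phosphorylation system were followed in mouse retinas after bright light, with and without the lysosomal protein CLN3. Members were the genes whose symbol in the array's probe table starts with Ndufa, Ndufb, Ndufc, Ndufs or Ndufv (assembly factors named Ndufaf excepted), with Uqcr, with Cox and a digit of 4 to 8, or with Atp5, and the genes Sdha, Sdhb, Sdhc and Sdhd. This rule, which uses names only, gave 85 of the 19505 genes measured. By respiratory complex they were 36 of complex I, 4 of complex II, 8 of complex III, 20 of complex IV and 17 of complex V. *Ndufa4* and *Ndufa4l2* were placed with complex IV, where their proteins reside. Each member had 1 transcript cluster and all 85 were tested, with no filter on low values.

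The respiratory chain lies in the inner mitochondrial membrane. Complex I (NADH dehydrogenase) and complex II (succinate dehydrogenase) feed electrons to ubiquinone, complex III passes them to cytochrome c, and complex IV (cytochrome c oxidase) hands them to oxygen. Complexes I, III and IV pump protons, and complex V (ATP synthase) uses the gradient to make ATP. Photoreceptors pack mitochondria into their inner segments and are among the most energy-demanding cells of the body. Subunit c of ATP synthase, the product of *Atp5g1*, *Atp5g2* and *Atp5g3*, is a main storage material in juvenile neuronal ceroid lipofuscinosis, the disease caused by loss of CLN3.

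Total retinal RNA of 10 young mice was hybridised to 10 arrays, with 2 animals in each of 5 groups. CLN3-deficient mice (Cln3 delta ex7/8, which lack exons 7 and 8 of *Cln3* in every cell) were light-exposed and injected with minocycline at 45 mg/kg, light-exposed and injected with the saline vehicle, or unexposed. Wild-type mice were exposed to high light or were unexposed. The wild-type exposure was 15000 lux for 60 min. The labels of the CLN3-deficient mice give no dose, and the treatment protocol puts the minocycline experiment at 10000 lux for 30 min, so genotype and light dose cannot be told apart. The labels name the wild-type strain as Balb/c and give only the mutation for the other mice, whereas the methods describe littermates that all carry a light-sensitive *Rpe65* variant. No injection is stated for unexposed or wild-type mice, so light and injection cannot be told apart in CLN3-deficient mice. The exact age and the day of sampling are not in the labels. CLN3-deficient is written KO and wild-type WT in the figures.

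All values are log2 expression levels in the arrays' units, and levels of different genes are not comparable. The *Cln3* cluster read 9.40 to 10.18 with minocycline, 9.46 to 10.13 with vehicle and 9.14 to 9.18 in unexposed CLN3-deficient retinas, against 10.25 to 10.72 in wild-type retinas. Where its probes lie relative to the deleted exons is not known here. Rod markers were strongly present on every array, with list means of 16.4 to 17.6. Some arrays carried transcripts of other tissue. Skeletal muscle markers (11 genes) had a mean of 9.29 on unexposed CLN3-deficient array 1 and 6.66 on minocycline array 2, against 5.39 to 5.67 on the other 8 arrays. Retinal pigment epithelium markers (5 genes) had a mean of 11.6 on minocycline array 2 and 8.56 to 9.95 elsewhere. Y-linked transcripts were present on minocycline array 1, both vehicle arrays and both unexposed wild-type arrays, and absent on the other 5. Lens markers (8 genes) had means of 8.23 on minocycline array 1 and 5.89 on array 2, 7.53 and 6.2 on the vehicle arrays, and 5.90 and 5.35 on the unexposed CLN3-deficient arrays. These differences came mainly from *Cryaa*, *Cryba1* and *Crygs*, and *Cryaa* read 14.58 and 8.16 on the minocycline arrays. *Bfsp1*, *Bfsp2*, *Mip* and *Lim2* read at most 5.97 on every array. Whether lens tissue was present was not tested. In wild-type retinas the lens means were 5.72 and 5.76 after light against 7.16 and 7.62 without. There 3 of the 8 fell (37.5%), against 15.6% of all genes. Their part in the lower subunit levels was not tested. Light and the presence of Y-linked transcripts cannot be told apart between vehicle and unexposed CLN3-deficient retinas, or between light-exposed and unexposed wild-type retinas, where they run in opposite directions.

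After light, subunit genes of oxidative phosphorylation were lower in CLN3-deficient retinas (vehicle against unexposed). Of the 85 members, 30 fell, 3 rose and 52 did not pass (limma with Benjamini-Hochberg adjustment over 19505 genes, threshold 0.05). In this comparison 11.0% of all genes fell and 6.57% rose. The members' share was 35.3% lower and 3.53% higher. In whole retina, fewer cells of a type and less RNA of a gene per cell cannot be told apart. Their median log2 fold change was -0.39, with a range of -2.20 to 1.28, against a median of 0.005 over all genes. Genes with a mean level of 10 or more fell more often than others, and 21.3% of these 5593 genes were lower. The 65 members in that range included 25 that fell, or 38.5%. In that range the median was -0.245 over all genes and -0.405 over the members.

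Each complex held members that fell and members that did not pass. The median log2 fold change was -0.41 for complex I, -0.76 for complex II, -0.73 for complex III, -0.13 for complex IV and -0.72 for complex V. Members that fell numbered 13 of 36 in complex I, 2 of 4 in complex II, 3 of 8 in complex III, 3 of 20 in complex IV and 9 of 17 in complex V. These are shares of 36.1%, 50%, 37.5%, 15% and 52.9%, where 11.0% of all genes and 21.3% of those with a mean of 10 or more fell. The share of complex IV was thus near that of all genes. The differences between complexes were not tested.

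**Figure D1:**
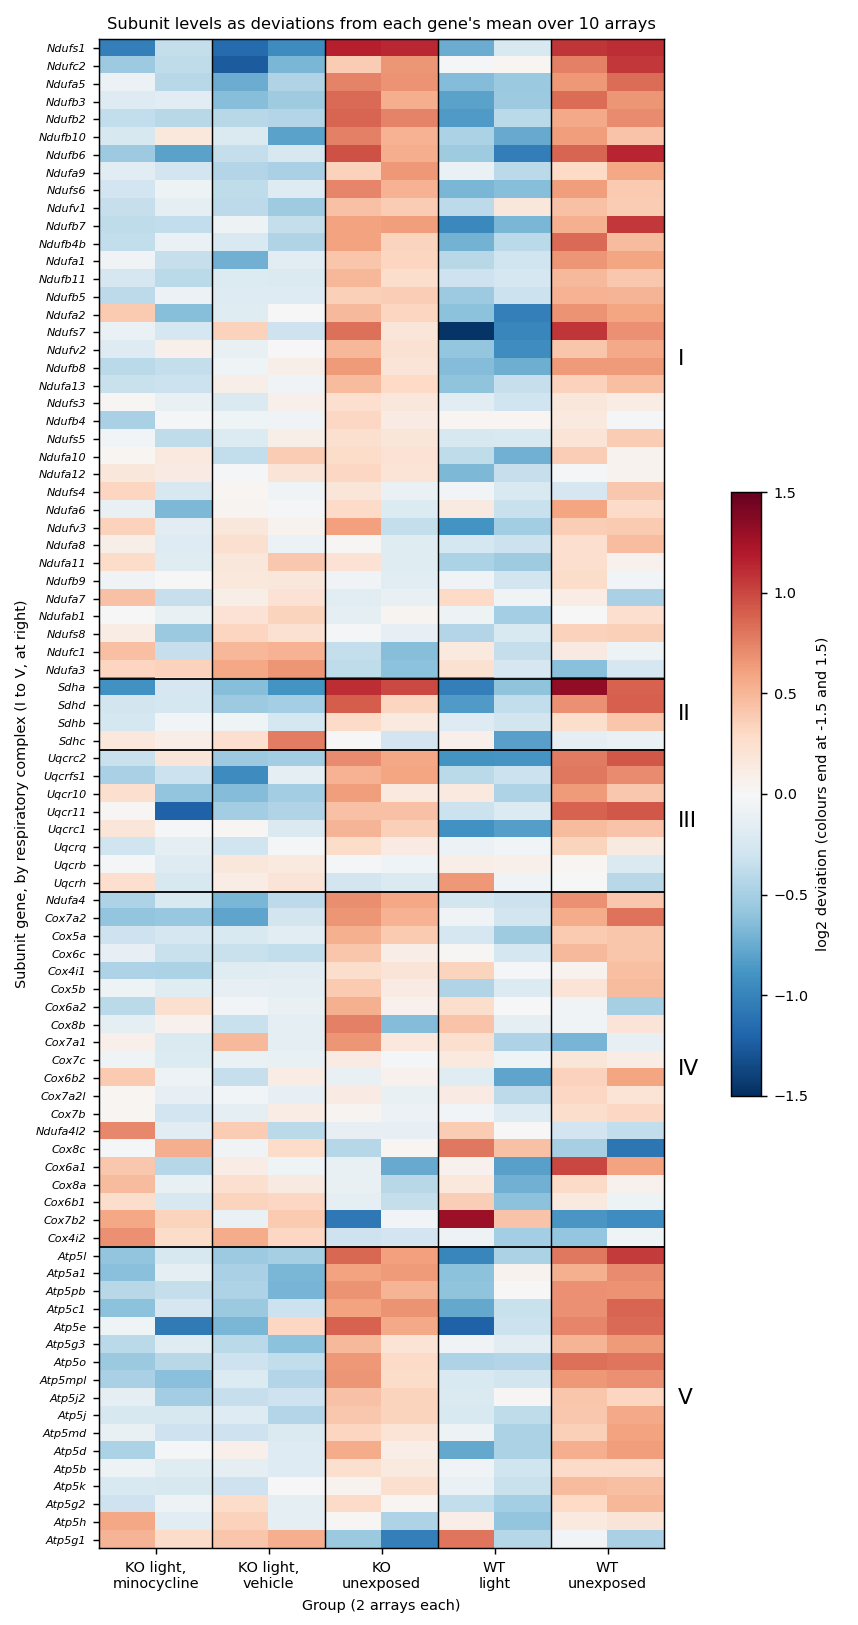
Level of each of the 85 subunit genes (rows, grouped by complex I to V) on each of the 10 arrays (columns, 2 per group), as the log2 deviation from that gene's own mean. Most rows are red on the 4 unexposed arrays and blue on the 6 light-exposed arrays, and a smaller set, such as Atp5g1, Ndufa3 and Cox7b2, runs the other way.

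In complex I, the largest fall was that of *Ndufs1*, the large iron-sulfur subunit of the electron-input arm. It read 10.45 and 10.66 with vehicle and light, against 12.77 and 12.74 in unexposed CLN3-deficient retinas, a log2 fold change of -2.20 (SE 0.257, adjusted p = 0.00126 from limma). Both light-exposed arrays lay more than 2 log2 units below both unexposed arrays. *Ndufc2*, an accessory subunit of the membrane arm, read 12.60 and 13.16 against 14.23 and 14.51 (log2 fold change -1.49, adjusted p = 0.00277 from limma). *Ndufa5*, an accessory subunit of the matrix arm, read 10.34 and 10.63 against 11.82 and 11.75 (log2 fold change -1.30, adjusted p = 0.00293 from limma).

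Not all of complex I went down. *Ndufa3*, a small accessory subunit, rose, with 14.61 and 14.69 after light and 13.65 and 13.41 without (log2 fold change 1.12, SE 0.228, adjusted p = 0.00785 from limma). *Ndufc1*, another accessory subunit of the membrane arm, read 15.63 and 15.66 after light against 14.77 and 14.50 (log2 fold change 1.01, adjusted p = 0.0284 from limma). The products of *Ndufc1* and *Ndufc2* sit in the same enzyme, and their transcripts moved in opposite directions in these retinas. Of the 6 core subunits measured, 2 fell (*Ndufs1* and *Ndufv1*) and 4 did not pass. *Ndufs8*, which carries iron-sulfur clusters, was among these 4 at 12.74 and 12.64 after light against 12.40 and 12.29.

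Complex II, which is also an enzyme of the citric acid cycle, showed the second-largest fall among all members. *Sdha*, the flavoprotein that oxidises succinate, read 10.93 and 10.67 with vehicle and light against 12.68 and 12.56 without (log2 fold change -1.82, SE 0.267, adjusted p = 0.00223 from limma). *Sdhd*, a membrane anchor, read 9.45 and 9.48 against 10.90 and 10.32 (log2 fold change -1.15, adjusted p = 0.00967 from limma). Neither gene had overlapping arrays. The iron-sulfur subunit *Sdhb* read 12.08 and 11.88 against 12.43 and 12.29 and did not pass (adjusted p = 0.214 from limma). The other anchor, *Sdhc*, read 11.08 and 11.60 against 10.82 and 10.54 and did not pass either (adjusted p = 0.14 from limma). The 4 genes of this smallest complex thus spanned log2 fold changes of -1.82 to 0.66.

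In complex III, *Uqcrc2*, a core protein, read 9.68 and 9.70 after light against 10.93 and 10.80 in unexposed CLN3-deficient retinas (log2 fold change -1.18, adjusted p = 0.00511 from limma). The Rieske iron-sulfur protein *Uqcrfs1* and the small subunit *Uqcr10* were the other 2 that fell. *Uqcrb*, a small subunit, read 17.66 and 17.63 against 17.46 and 17.42 (log2 fold change 0.21, adjusted p = 0.517 from limma). In complex IV, *Ndufa4*, *Cox7a2* and *Cox5a* fell. *Ndufa4* read 15.06 and 15.36 against 16.45 and 16.33 (log2 fold change -1.18, adjusted p = 0.00417 from limma). *Cox7c*, a small subunit of complex IV, read 17.07 and 17.06 against 17.29 and 17.15 (adjusted p = 0.637 from limma).

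**Figure D2:**
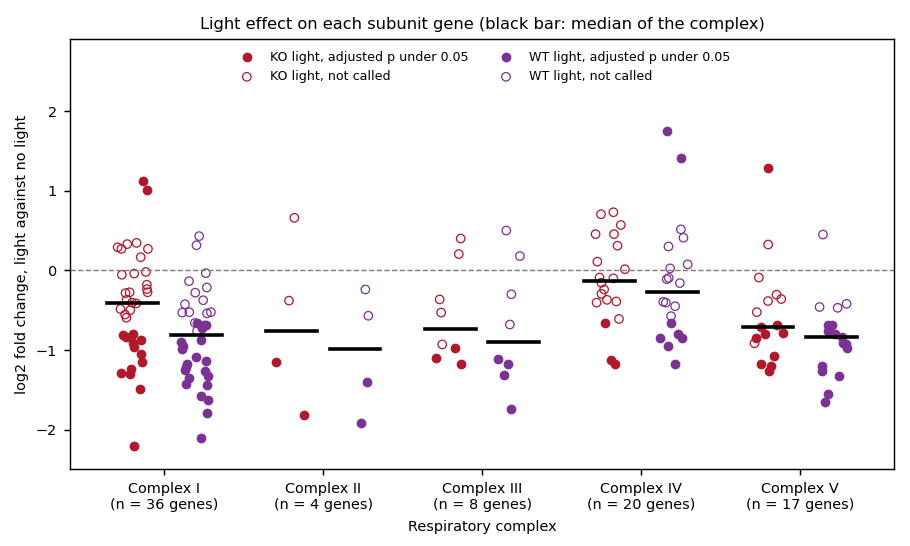
Log2 fold change of light against no light (vertical axis) for each subunit gene, by respiratory complex, in KO retinas with vehicle (red) and in WT retinas (purple). Filled points have an adjusted p under 0.05 and black bars are the medians of the complexes, which run from -0.76 (complex II) to -0.13 (complex IV) in KO and from -0.99 (complex II) to -0.28 (complex IV) in WT.

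In complex V, members of the catalytic head, the peripheral stalk and the membrane part fell. *Atp5a1*, the alpha subunit of the head, read 15.57 and 15.37 after light against 16.66 and 16.69 (log2 fold change -1.21, adjusted p = 0.00966 from limma). *Atp5l*, a membrane subunit, read 11.01 and 11.06 against 12.42 and 12.17 (log2 fold change -1.26, adjusted p = 0.00543 from limma). *Atp5b*, the catalytic beta subunit, served as the reference gene of the study's quantitative PCR. It read 16.94 and 16.84 with minocycline, 16.87 and 16.83 with vehicle, and 17.26 and 17.16 in unexposed CLN3-deficient retinas. In wild-type retinas it read 16.96 and 16.72 after light, against 17.30 and 17.30 without. All 6 light-exposed arrays were below all 4 unexposed arrays for *Atp5b*. Its log2 fold change was -0.36 (SE 0.191, adjusted p = 0.224 from limma) in CLN3-deficient and -0.46 (adjusted p = 0.0956 from limma) in wild-type retinas, and it passed in neither.

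The genes of subunit c did not move together. Their mature proteins are identical, and they differ in the import peptide and in their promoters. *Atp5g1* rose in CLN3-deficient retinas, with 14.86 and 14.99 after light and vehicle against 13.88 and 13.41 without light (log2 fold change 1.28, SE 0.347, adjusted p = 0.027 from limma). *Atp5g2* read 14.07 and 13.66 against 14.08 and 13.83, and the arrays of the groups overlapped (log2 fold change -0.09, adjusted p = 0.826 from limma). *Atp5g3* fell, with 12.80 and 12.59 against 13.69 and 13.41 (log2 fold change -0.86, adjusted p = 0.0155 from limma). With minocycline and light, *Atp5g1* read 14.95 and 14.71, *Atp5g2* 13.49 and 13.72, and *Atp5g3* 12.80 and 13.02.

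In wild-type retinas the order differed. *Atp5g1* read 15.24 and 14.01 after light against 14.40 and 13.95 without, with overlapping arrays (log2 fold change 0.45, adjusted p = 0.358 from limma). *Atp5g2* fell there, with 13.43 and 13.29 against 14.10 and 14.30 (log2 fold change -0.84, adjusted p = 0.017 from limma). *Atp5g3* fell too, with 13.15 and 13.04 against 13.72 and 13.84 (log2 fold change -0.69, adjusted p = 0.0298 from limma). The light effect on *Atp5g2* was 0.75 higher in CLN3-deficient retinas than in the wild type, which did not pass (adjusted p = 0.396 from limma). Without light, all 3 genes had lower means in CLN3-deficient retinas than in the wild type, by 0.53, 0.25 and 0.23, and none passed.

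**Figure D3:**
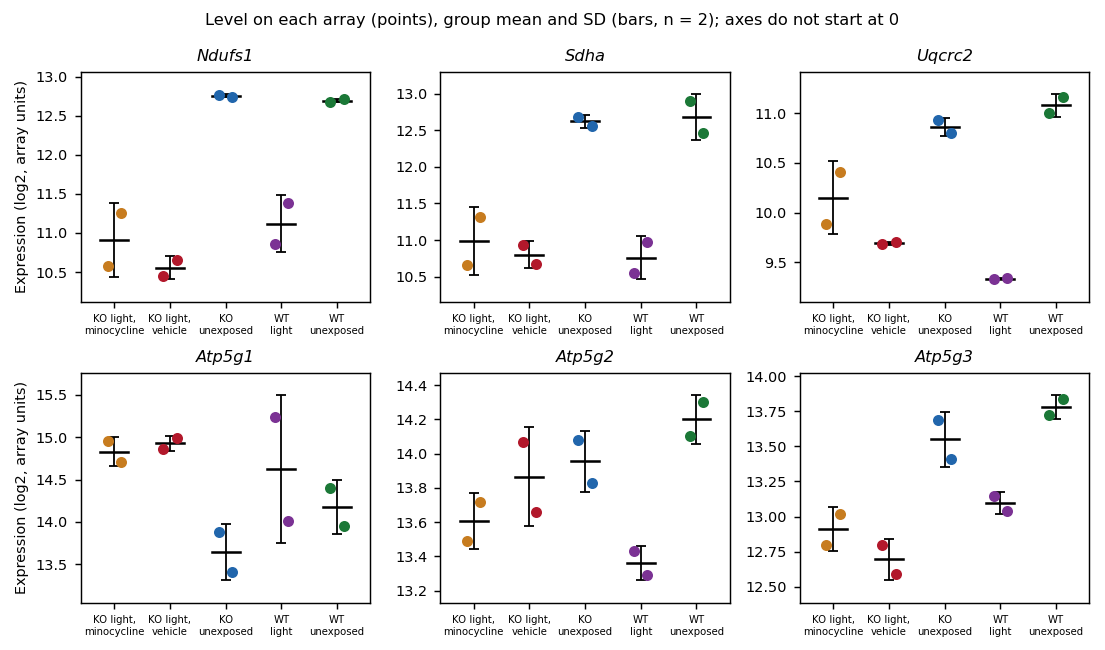
Log2 level (vertical axes, not starting at 0) of Ndufs1, Sdha, Uqcrc2 and the subunit c genes Atp5g1, Atp5g2 and Atp5g3 on each array, by group, with the group mean and SD (n = 2). Ndufs1, Sdha and Uqcrc2 are lower on all light-exposed arrays than on all unexposed arrays, whereas Atp5g1 is higher after light in KO.

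The promoters of the subunit c genes are shown because the expression of these genes split while their product is shared. The sequences are those of RefSeq on build GRCm38.p6, 250 bases before to 50 bases after the annotated start, 5′ to 3′ on the gene's strand. Capitals mark a binding motif of a factor known to drive respiratory genes, namely the NRF1 motif GCATGCGC or the estrogen-related receptor motif TCAAGGTCA, on either strand. The *Atp5g1* window lies at chr11:96075582-96075881 and the *Atp5g2* window at chr15:102670998-102671297. The *Atp5g3* window lies at chr2:73911277-73911576, and all 3 are on the minus strand.
Atp5g1: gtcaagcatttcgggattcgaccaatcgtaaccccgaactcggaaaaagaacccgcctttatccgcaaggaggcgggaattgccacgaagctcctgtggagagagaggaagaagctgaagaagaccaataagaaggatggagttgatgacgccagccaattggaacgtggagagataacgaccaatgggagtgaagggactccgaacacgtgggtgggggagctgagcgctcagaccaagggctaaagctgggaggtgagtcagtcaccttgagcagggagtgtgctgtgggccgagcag
Atp5g2: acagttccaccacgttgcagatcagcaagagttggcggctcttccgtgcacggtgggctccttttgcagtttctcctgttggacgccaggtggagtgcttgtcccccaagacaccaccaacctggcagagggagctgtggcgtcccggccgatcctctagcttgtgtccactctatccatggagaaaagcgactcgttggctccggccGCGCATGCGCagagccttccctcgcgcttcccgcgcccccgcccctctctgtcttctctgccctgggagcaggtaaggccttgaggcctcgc
Atp5g3: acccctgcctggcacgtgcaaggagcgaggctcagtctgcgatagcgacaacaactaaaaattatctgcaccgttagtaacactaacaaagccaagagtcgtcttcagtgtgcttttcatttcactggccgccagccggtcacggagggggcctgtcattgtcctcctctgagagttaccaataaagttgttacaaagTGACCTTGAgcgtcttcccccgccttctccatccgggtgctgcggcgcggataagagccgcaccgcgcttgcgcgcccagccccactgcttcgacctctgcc
*Atp5g2* held the NRF1 motif on both strands, as overlapping matches 42 and 40 bases before the start. *Atp5g3* held the estrogen-related receptor motif in reverse (TGACCTTGA) 52 bases before the start. *Atp5g1*, the member that rose, held none of the 4 motifs searched.

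Over all members, 70 of 85 had a promoter in the table, and 5 of them had several. The NRF1 motif was in 10 of the 70 (14.3%), against 4.1% of the 15691 tested genes with a promoter. The GABP motif CCGGAAG was in 17 members (24.3%), against 13.2% of genes. The YY1 motif AAGATGG was in 11 members (15.7%), against 7.29% of genes, and among them were *Ndufa3* and *Ndufc1*, which rose. The estrogen-related receptor motif was in 2 members (2.86%), against 0.351% of genes. Both strands were searched, and 33 members had at least 1 of the 4 motifs. Of the 26 members with a promoter that fell in CLN3-deficient retinas, 1 held the NRF1 motif, 5 the GABP motif and 5 the YY1 motif. Of the 42 that fell in wild-type retinas, 7 held the NRF1 motif, 11 the GABP motif and 6 the YY1 motif. Of the 28 that did not fall there, 3, 6 and 5 held these motifs in that order. The 2 members with the estrogen-related receptor motif, *Atp5g3* and *Sdhd*, fell in both genotypes. A match describes these letters only.

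In wild-type retinas the falls were more numerous. Of the 85 members, 47 fell after high light, 2 rose and 36 did not pass by the same limma threshold. Among all genes, 15.6% fell and 10.5% rose in this comparison. The members' share was 55.3% lower and 2.35% higher. Their median log2 fold change was -0.69, against 0.025 over all genes. Of genes with a mean of 10 or more, 26.8% fell, against 55.4% of the 65 members in that range. There the median was -0.305 over all genes and -0.69 over the members. The medians were -0.82 for complex I, -0.99 for complex II, -0.90 for complex III, -0.28 for complex IV and -0.84 for complex V. Members that fell numbered 22, 2, 4, 6 and 13 in complexes I to V, or 61.1%, 50%, 50%, 30% and 76.5% of the members of each.

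The largest fall in wild-type retinas was that of *Ndufs7*, the core subunit with the last iron-sulfur cluster before ubiquinone. It read 10.07 and 10.56 after light against 12.61 and 12.23 without (log2 fold change -2.11, SE 0.297, adjusted p = 0.0014 from limma). In CLN3-deficient retinas the same gene read 11.89 and 11.23 with vehicle against 12.37 and 11.72, and did not pass (adjusted p = 0.296 from limma). *Sdha* read 10.55 and 10.97 against 12.90 and 12.46 (log2 fold change -1.92, adjusted p = 0.00134 from limma). For *Sdha* the light-exposed arrays lay below the unexposed arrays in both genotypes. *Ndufb6*, an accessory subunit of the membrane arm, read 9.90 and 9.40 against 11.31 and 11.58 (log2 fold change -1.80, adjusted p = 0.00121 from limma). *Uqcrc2* read 9.33 and 9.34 against 11.00 and 11.16 (log2 fold change -1.75, adjusted p = 8.61e-04 from limma). *Ndufs1* read 10.86 and 11.38 against 12.68 and 12.71 (log2 fold change -1.58, adjusted p = 0.00238 from limma).

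Some accessory subunits fell in wild-type retinas without passing in CLN3-deficient retinas. *Ndufv3*, of complex I, read 5.38 and 5.75 in light-exposed wild-type retinas against 6.64 and 6.66 without light. *Uqcr11* read 6.74 and 6.85 against 7.94 and 7.99, and *Atp5k* 6.01 and 5.78 against 6.59 and 6.57. All 3 fell in wild-type retinas (adjusted p = 0.0231, 0.0197 and 0.0293 from limma) and none passed in CLN3-deficient retinas. There the log2 fold changes were -0.02, -0.93 and -0.305, against -1.085, -1.17 and -0.685 in wild-type retinas. For *Uqcr11* and *Atp5k* both vehicle arrays lay below both unexposed CLN3-deficient arrays. The difference of the light effects passed in none of the 3 (adjusted p = 0.3855, 0.8871 and 0.6679 from limma). *Ndufv3* and *Atp5k* lay below the array medians of 7.14 to 7.25 on every array, and *Uqcr11* lay on both sides of them.

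The 2 members that rose in wild-type retinas were both isoforms of complex IV known from testis. *Cox7b2* read 7.61 and 6.75 after light against 5.45 and 5.40 (log2 fold change 1.76, adjusted p = 0.0056 from limma). *Cox8c* read 7.68 and 7.33 against 6.39 and 5.80 (log2 fold change 1.41, adjusted p = 0.0056 from limma). These levels lay around or below the array medians of 7.14 to 7.25. The 25th percentiles of the wild-type arrays were also higher after light, 5.15 and 5.03 against 4.79 and 4.76. The part of that shift in these rises was not tested. In CLN3-deficient retinas with vehicle *Cox7b2* read 6.23 and 6.72 against 5.25 and 6.29, and *Cox8c* 6.83 and 7.16 against 6.46 and 6.91. Neither passed there.

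Complex IV has tissue isoforms beside its common forms. Of 8 tissue isoforms, 0 fell and 0 rose in CLN3-deficient retinas, with 4 values above 0 and 4 below. In wild-type retinas 2 rose and *Cox6b2*, another testis form, fell, with 5.63 and 5.02 against 6.16 and 6.40 (adjusted p = 0.0235 from limma). Of the 11 common forms, 3 fell in CLN3-deficient and 5 in wild-type retinas, and 0 rose in either. These falls are shares of 27.3% and 45.5%, where 11.0% and 15.6% of all genes fell and 6.57% and 10.5% rose. Of genes with a mean of 10 or more, 21.3% and 26.8% fell, so the CLN3-deficient share of the common forms was near theirs. The difference between common forms and tissue isoforms was not tested. The lung form *Cox4i2* read 9.06 and 8.82 with vehicle and light against 8.20 and 8.22, whereas the common *Cox4i1* read 12.25 and 12.27 against 12.70 and 12.63. Neither passed (adjusted p = 0.0654 and 0.224 from limma). *Ndufa4l2*, the isoform of *Ndufa4* induced by low oxygen, read 4.09 and 3.31 against 3.59 and 3.59. The heart and muscle forms *Cox6a2*, *Cox7a1* and *Cox8b* read 6.74, 7.77 and 5.62 on unexposed CLN3-deficient array 1, which held muscle transcripts, and 6.27, 7.27 and 4.21 on array 2.

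The light comparisons of the genotypes have no array in common. There were 27 members that fell in both, which is 90.0% of the CLN3-deficient list of 30 and 57.4% of the wild-type list of 47. Over all genes the shared falls made 71.1% and 50.3% of the lists. The 27 comprised 12 of complex I, 2 of complex II, 2 of complex III, 3 of complex IV and 8 of complex V. The 3 members called lower only in CLN3-deficient retinas were *Atp5j2*, *Ndufv1* and *Uqcr10*, and all 3 also lay below 0 in wild-type retinas. Across the 85 members the effects in the genotypes had a Pearson correlation of 0.688 and a Spearman correlation of 0.731, given as a description, since the members share the arrays.

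**Figure D4:**
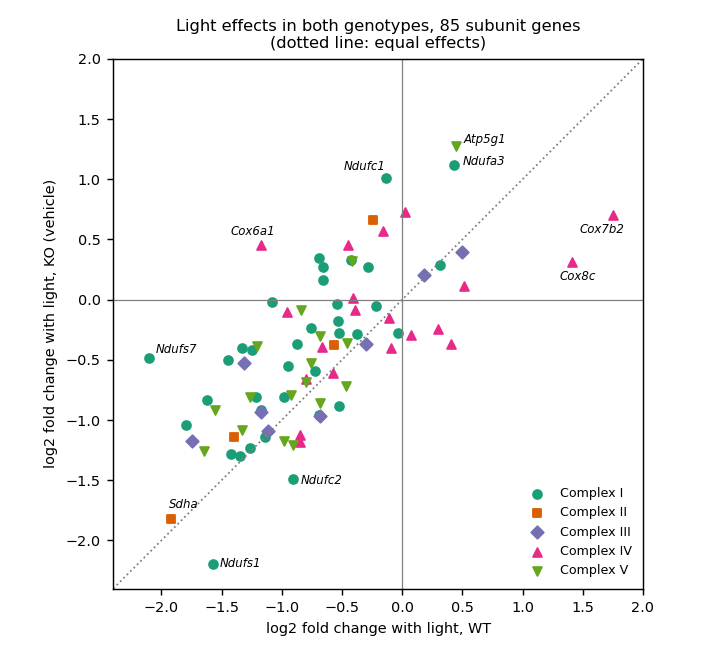
Log2 fold change with light in KO retinas with vehicle (vertical axis) against that in WT retinas (horizontal axis) for the 85 subunit genes, coloured by complex. Most points lie in the lower left part and left of the dotted line of equal effects, with Ndufs7 far to the left, and Cox6a1 lies above 0 in KO and below 0 in WT.

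The difference of the light effects was tested as the interaction of genotype and light. Of the 85 members 0 passed in limma, as did 0% of all genes. Before adjustment, at 0.05, 18 members had a higher and 1 a lower value in CLN3-deficient retinas, where 11.1% of all genes passed in either direction. The median difference over the members was 0.25, against -0.02 over all genes, and 60 of 85 lay above 0. In complex I 29 of 36 lay above 0, with a median of 0.40, and 12 were among the 18. The difference was 1.62 for *Ndufs7* (95% interval 0.70 to 2.54, adjusted p = 0.216 from limma) and 1.63 for *Cox6a1* (adjusted p = 0.271). Light doses differed between the genotypes, and an injection is stated only for light-exposed CLN3-deficient mice. Y-linked transcripts also changed with light in opposite directions, so this difference is not one of genotype alone. With a covariate for Y-linked transcripts, which the minocycline arrays alone set, the median difference was 0.04.

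Minocycline, a tetracycline antibiotic that also dampens microglia, was compared with vehicle in light-exposed CLN3-deficient retinas. Of the 85 members 0 passed (limma), and 0 had an unadjusted p under 0.05, whereas 0.0154% of all genes passed after adjustment and 6.55% before it. By the methods' t-test, 0 members passed after adjustment, where 2 of all 19505 genes were higher and 1 lower. Before adjustment 2 members were higher and 5 lower, where 498 of all genes were higher and 504 lower. The members' median was -0.01, against 0.005 over all genes, and single values ran from -0.50 to 0.50. The half-width of the 95% interval was 0.496 in the median member, so a change of that size in a single gene could not be told from none. *Ndufs1* read 10.58 and 11.25 with minocycline against 10.45 and 10.66 with vehicle. *Sdha* read 10.66 and 11.32 against 10.93 and 10.67.

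Set against unexposed CLN3-deficient retinas, the minocycline group also had lower subunit levels. There, 24 members fell and 1 rose by the same limma threshold, in a comparison where 6.74% of all genes fell and 3.77% rose. The median was -0.47, against -0.015 over all genes. Of genes with a mean of 10 or more, 12.9% fell (median -0.18), against 29.2% of the 65 members in that range (median -0.47). The vehicle and minocycline comparisons share the unexposed arrays. *Ndufs1* had 10.58 and 11.25 against 12.77 and 12.74 (log2 fold change -1.84, adjusted p = 0.00376 from limma), and *Sdha* had 10.66 and 11.32 against 12.68 and 12.56 (log2 fold change -1.63, adjusted p = 0.00634). *Ndufb6* had 9.89 and 9.63 against 11.39 and 10.98 (log2 fold change -1.43, adjusted p = 0.00693 from limma). For these genes both minocycline arrays lay below both unexposed arrays. *Ndufb2*, an accessory subunit of the membrane arm, had 10.48 and 10.44 against 11.73 and 11.60 (log2 fold change -1.21, adjusted p = 0.00757 from limma). The gene that rose was *Ndufa3*, with 14.35 and 14.37 against 13.65 and 13.41 (log2 fold change 0.83, adjusted p = 0.0409 from limma). *Atp5g1* had 14.95 and 14.71 against 13.88 and 13.41 and did not pass (adjusted p = 0.0509 from limma).

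Without light, no member passed between CLN3-deficient and wild-type retinas (0 of 85 in limma and by the methods' t-test, with 0.0461% of all genes in limma). Before adjustment, at 0.05, 1 member was higher and 1 lower, where 4.35% of all genes passed. They were *Cox7a1*, with 7.77 and 7.27 in CLN3-deficient against 6.41 and 6.99 in wild-type retinas, and *Cox6a1*, with 14.67 and 14.02 against 15.78 and 15.38. *Cox7a1* is a heart and muscle form, and its 7.77 was on array 1, which held muscle transcripts. The part of these transcripts in the difference was not tested. The members' median was -0.12, against -0.015 over all genes, and 63 of 85 lay below 0.

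**Figure D5:**
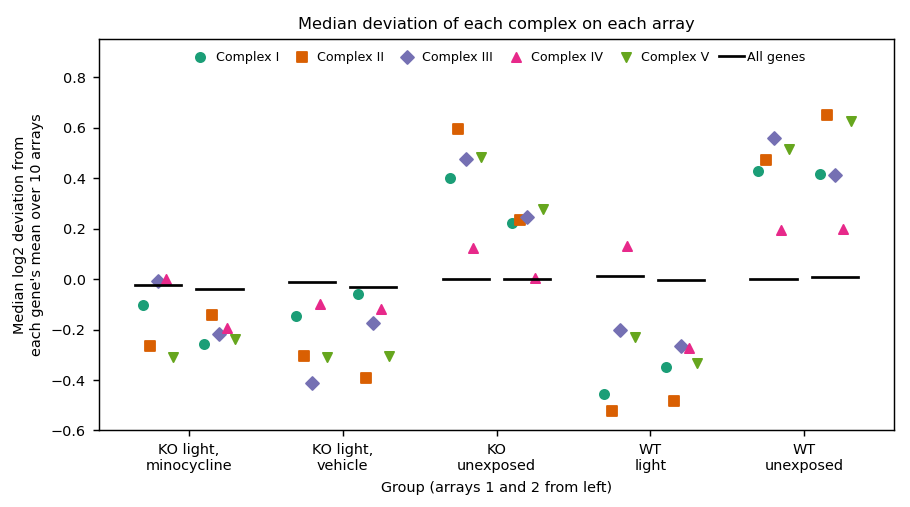
Median log2 deviation from each gene's own mean (vertical axis) for the members of each complex on each array, by group, with the median of all genes as a black bar. Over all members the medians ran from -0.23 to -0.11 with minocycline, -0.18 to -0.15 with vehicle, 0.20 to 0.40 in unexposed KO, -0.33 to -0.23 in light-exposed WT and 0.39 to 0.41 in unexposed WT retinas.

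The median deviation separated light-exposed from unexposed arrays in both genotypes. Of the 85 members, 29 and 14 lay above their own mean on the minocycline arrays, 27 and 26 on the vehicle arrays, and 67 and 60 on the unexposed CLN3-deficient arrays. In wild-type retinas the counts were 24 and 10 after light against 73 and 69 without. Complex IV had medians of -0.097 and -0.117 on the vehicle arrays against 0.123 and 0.004 on the unexposed CLN3-deficient arrays.

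Other genes of the pathway were counted in the same comparisons. Of 43 measured assembly factors, which build the complexes, 14 fell and 0 rose in CLN3-deficient retinas (median -0.52), and 21 fell and 0 rose in wild-type retinas (median -0.80). *Tmem126b*, an assembly factor of complex I, had a log2 fold change of -1.41 in CLN3-deficient retinas (adjusted p = 0.00327 from limma), and *Coa5* and *Coa7*, needed for complex IV, had -1.68 and -1.38. In wild-type retinas *Sdhaf1*, which inserts iron-sulfur clusters into complex II, had -1.59 and *Cox14* -1.33. Of 76 mitochondrial ribosomal proteins, which translate the subunits encoded by mitochondrial DNA, 14 fell and 0 rose in CLN3-deficient retinas (median -0.41). In wild-type retinas 34 fell and 0 rose (median -0.64). The shares that fell were 32.6% and 48.8% of the assembly factors and 18.4% and 44.7% of the ribosomal proteins, in CLN3-deficient and wild-type retinas in that order, where 11.0% and 15.6% of all genes and 21.3% and 26.8% of those with a mean of 10 or more fell. None of the 13 subunits encoded by mitochondrial DNA was among the genes measured.

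Genes that supply electrons were counted in the same way. Of 17 genes of the citric acid cycle and pyruvate dehydrogenase, 9 fell and 1 rose in CLN3-deficient retinas (median -0.84), and 12 fell and 0 rose in wild-type retinas (median -1.04). *Pdha1*, the alpha subunit of pyruvate dehydrogenase, had a log2 fold change of -1.86 in CLN3-deficient and -1.54 in wild-type retinas (adjusted p = 0.00175 and 0.00226 from limma). *Idh3b*, a subunit of isocitrate dehydrogenase, had -1.66 in wild-type retinas. Of 16 glycolysis genes, 6 fell and 0 rose in CLN3-deficient retinas (median -0.61), and *Pfkm*, a phosphofructokinase with the smallest p of the list, had -1.29. In wild-type retinas 3 fell, and the glucose transporter *Slc2a1* rose by 1.15 (adjusted p = 0.00579 from limma). The shares that fell were 52.9% and 70.6% for the citric acid cycle and 37.5% and 18.8% for glycolysis, CLN3-deficient first. Of all genes 11.0% and 15.6% fell, and of genes with a mean of 10 or more 21.3% and 26.8%. The wild-type share of glycolysis thus lay below that of genes with a mean of 10 or more. Of 7 electron carriers 0 passed in either genotype by limma.

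Among 13 regulators of mitochondrial gene expression, 2 fell in CLN3-deficient and 3 in wild-type retinas, and 0 rose in either. These shares of 15.4% and 23.1% lie between those of all genes (11.0% and 15.6%) and those of genes with a mean of 10 or more (21.3% and 26.8%). *Gabpb1*, a subunit of the GABP factor, had a log2 fold change of -1.06 in CLN3-deficient (adjusted p = 0.0398 from limma) and -1.92 in wild-type retinas (adjusted p = 0.00244). *Tfb2m*, a factor of mitochondrial transcription, had -1.01 and -0.84 (adjusted p = 0.0123 and 0.0202 from limma). *Yy1* passed in wild-type retinas only, at -0.78, against -0.76 in CLN3-deficient retinas (adjusted p = 0.0359 and 0.0517). In the minocycline group against unexposed retinas, 2 of the 13 fell and 1 rose, where 6.74% of all genes fell and 3.77% rose. *Tfam* and *Tfb2m* fell there, at -0.90 and -0.785 (adjusted p = 0.0438 and 0.0488 from limma). The coactivator *Ppargc1a* rose by 0.90 (adjusted p = 0.0496 from limma).

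Most markers of retinal neurons were lower after light as well. For comparison, 11.0% of all genes fell and 6.57% rose in CLN3-deficient retinas, and 15.6% fell and 10.5% rose in wild-type retinas. Of genes with a mean of 10 or more, 21.3% and 26.8% fell. Of 9 rod markers, 4 fell and 0 rose in CLN3-deficient retinas (median -0.74), and 6 fell and 0 rose in wild-type retinas (median -0.85). Their summed level was 151 to 152 on vehicle arrays against 157 to 158 on unexposed CLN3-deficient arrays, and 147 to 149.5 against 155 to 158 in wild-type retinas. Of 7 ganglion cell markers, 4 and 6 fell (medians -0.92 and -0.94), and of 6 cone markers, 2 and 4. In CLN3-deficient retinas 2 of the ganglion cell markers and 1 of the cone markers lay above 0. Among them, *Sncg* read 14.76 and 14.60 with vehicle against 14.35 and 13.96 without light. Of 8 microglia and macrophage markers, CLN3-deficient retinas had 5 that rose and none that fell. Wild-type retinas had 1 that rose and none that fell, and the list mean was 7.88 and 7.72 after light against 6.39 and 7.96 without. Of 4 Müller glia markers, 1 fell in CLN3-deficient and 2 in wild-type retinas (25% and 50%). The part of these markers in the lower subunit levels was not tested.

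The counts depended on single arrays, since each group had 2. Without unexposed CLN3-deficient array 1, which held muscle transcripts, 8 members fell and 1 rose after light with vehicle (median -0.29), and over all genes 504 fell and 366 rose, against 2152 and 1282 with every array. Without array 2, 18 members fell and 0 rose (median -0.55), with 851 falls over all genes. Leaving out vehicle array 1 or 2 gave 12 and 14 falls, with 702 and 789 over all genes. In wild-type retinas, 29 members fell without light-exposed array 1 and 27 without unexposed array 2, where 1440 and 1734 of all genes fell, against 3037 with every array. For minocycline against no light, 0 members fell without unexposed array 1, 6 without array 2, 9 without minocycline array 1 and 11 without minocycline array 2. The falls over all genes were then 27, 212, 431 and 737, against 1314 with every array. With a covariate for Y-linked transcripts (present or absent), 0 members fell in CLN3-deficient, 11 in wild-type and 9 in minocycline-injected retinas, and the medians were -0.54, -0.57 and -0.48. Over all genes 0, 622 and 431 fell with that covariate. That covariate is set by the minocycline arrays alone, since no other group holds both states. By the methods' t-test 0 members passed after adjustment in any comparison. Over all genes, 2 were higher and 6 lower after adjustment in CLN3-deficient retinas, with 0 and 0 in wild-type retinas. At an unadjusted p under 0.05 that test gave 28 lower and 9 higher members in CLN3-deficient and 44 lower and 0 higher in wild-type retinas. Over all genes it gave 2771 lower and 1882 higher in CLN3-deficient and 2063 lower and 1574 higher in wild-type retinas at that threshold.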

How the data were processed

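Retinal RNA of 10 mice (5 groups of 2) was measured on Affymetrix arrays. The cluster names match the Clariom S mouse design, although another array is named in the methods. The deposited log2 values per transcript cluster were made by the authors in Affymetrix Expression Console, whose version and algorithm are not stated in the sources read. Array medians ran from 7.14 to 7.25, and the 75th percentiles were 10.2 to 10.3 on light-exposed and 10.5 on unexposed arrays.

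Of 22206 clusters, 19572 had a single symbol in the probe table and 2634 were not listed in it. For 55 genes with several clusters, none a member, that with the highest mean was taken, which left 19505 genes. No further normalization was applied. Signal from pseudogenes or near-identical copies of subunit genes cannot be told apart.

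Differences were tested with limma 3.58.1 in R 4.3.3 (lmFit, eBayes without trend, 1 mean per group, shared spread) with Benjamini-Hochberg adjustment. Intervals are 95%, and 2 arrays per group limit the precision. No array test is named in the methods, whose unpaired t-test served as an alternative. Others were median centring, quantile normalization, omission of the 30% dimmest genes, trend and robust moderation, fits over the groups compared, every transcript cluster, a Y-linked covariate, and leaving out each array. The fit was tested on simulated data.

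Members, lists, motifs and comparisons were chosen with earlier results of these data known. Named members are, per comparison, the 4 largest called rises and falls, the highest and lowest mean of each complex, complex II, the subunit c genes, *Atp5b* and the tissue isoforms, and for other lists the 3 smallest p-values. *Ndufs8*, *Ndufv1*, *Uqcrfs1*, *Uqcr10*, *Cox5a*, *Atp5a1*, *Atp5l* and *Atp5j2* were named after their values were seen. Replicates are separate animals. Promoters were matched by gene ID in the RefSeq table, and 4 motifs were searched as exact letters.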

Additional observations from a re-analysis of the deposited data

Results flagged for a closer look

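For 5 members, both light-exposed arrays lay above both unexposed arrays in one genotype and below them in the other. That is 5.88% of the 85, against 4.13% of all genes (805 of 19505), so the share lies near that of all genes. The difference of the light effects, CLN3-deficient minus wild-type, passed in none of them (limma, adjusted over all genes), and the doses of light differed between genotypes. *Cox6a1*, the common form of a small complex IV subunit, had a log2 fold change of 0.46 in CLN3-deficient and -1.18 in wild-type retinas, a difference of 1.63 (adjusted p = 0.271). Its level was already 1.24 lower in unexposed CLN3-deficient than in unexposed wild-type retinas. *Ndufs8*, a core iron-sulfur subunit of complex I, differed by 1.035 (adjusted p = 0.285). *Ndufab1*, the acyl carrier protein of complex I, differed by 0.755 (adjusted p = 0.385) and *Ndufb9*, an accessory subunit, by 0.55 (adjusted p = 0.505). *Cox6a2*, the muscle form of the subunit, ran the other way, with a difference of -0.78 (adjusted p = 0.482). Muscle transcripts were present on unexposed CLN3-deficient array 1, where *Cox6a2* read 6.74, and their part in the difference was not tested.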

How the results depend on the processing

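The falls kept their direction, as medians, in each alternative for the light comparisons and for minocycline with light. Quantile normalization moved the median to -0.293 in CLN3-deficient and -0.4705 in wild-type retinas, and the difference of the light effects to 0.162. It moved the counts of the minocycline group against no light to 3 higher and 15 lower. Over all genes the counts of that comparison were then 817 higher and 870 lower, against 735 and 1314 in the main fit. With Y-linked transcripts as a covariate the counts were 0 higher and 0 lower (median -0.54) in CLN3-deficient, 0 and 11 (median -0.565) in wild-type and 0 and 9 in minocycline-injected retinas, and the medians were 0.04 for the difference of the light effects and -0.025 between unexposed genotypes. Over all genes, 0, 622 and 431 fell with that covariate. The methods' t-test gave 0 higher and 0 lower in all 3. Over all genes that test gave 2 higher and 6 lower in CLN3-deficient, 0 and 0 in wild-type and 1 and 2 in minocycline-injected retinas. The minocycline group had 2 rises without the dimmest genes, with trend and robust moderation, and in a fit of the groups compared. Over all genes, 820, 807 and 581 rose in these settings, in that order. Leaving out 1 array gave 0 to 3 rises, 8 to 31 falls and medians of -0.55 to -0.29 in CLN3-deficient retinas, and 1 to 3, 27 to 48 and -0.77 to -0.66 in wild-type retinas. It gave 0 to 2, 0 to 27 and -0.615 to -0.34 for minocycline with light. The median difference of the light effects ran from 0.155 to 0.30 and that between unexposed genotypes from -0.18 to -0.02. Of 720 alternative values of 48 single-gene results, 591 kept their call and direction, 121 lost the call, 2 gained it and 6 changed sign. *Atp5g2* in CLN3-deficient retinas became 0.088 with quantile normalization, 0.14 with the Y-linked covariate, 0.035 without unexposed array 1 and 0.115 without vehicle array 2. *Uqcr11* in wild-type retinas became 0.06 with the Y-linked covariate, and *Atp5g1* there became -0.165 without light-exposed array 1 and ran up to 1.065 without the other light-exposed array. The causes were not tested. No paired analysis was possible because replicate numbers were given in accession order and pair no animals. The number of arrays limits the precision, and array levels do not show depth.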
